A study of Mus musculus with 10 samples.

Results

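The genes described here are 39 transcription factors, listed as factors of the forebrain, eye, midbrain, ventral neural tube, spinal cord and sensory system. The list includes the 6 Iroquois genes, which are not confined to those regions. Not all of the 39 were silent in the cerebellum, since 16 averaged at least 1 RPKM in wild type. They were taken by symbol from the deposited gene table, whatever their level, and all 39 were found among its 22552 genes. Of the 39, 34 carry a homeobox, the DNA stretch that encodes a homeodomain. The other 5 do not: Fezf1, Fezf2 and Prdm12 are zinc finger factors, and Sim1 and Sim2 belong to the bHLH-PAS family.

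Regional homeodomain factors divide the neural tube into domains. Many of them act as repressors of the factors of adjoining domains, and the combination present in a progenitor sets which neurons it will form. In tissue where such a gene is silent, its promoter, usually rich in CpG dinucleotides, is a common site of H3K27me3, the histone mark placed by Polycomb repressive complex 2, whose main methyltransferase is Ezh2. The study compared cerebella of mouse embryos at E13.5, on a mixed C57BL/6;129 background, with 4 RNA-seq libraries labelled Ezh2 deletion and 4 labelled wild type. In the deletion group a floxed Ezh2 allele was recombined by Cre expressed from Pax7, and a Rosa-YFP reporter allele was bred in as an aid to dissection. Cells without Pax7-Cre activity therefore kept Ezh2, and the labels do not say whether wild type embryos carried Cre, floxed or reporter alleles. The study also holds 1 H3K27me3 ChIP-seq sample per genotype, not analysed here.

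Levels are RPKM, which scales reads by the length of a gene and by the reads mapped per library. A gene was tested with limma on log2(RPKM + 0.25) where its mean over the 8 libraries was at least 0.25 RPKM, and was called where its p, adjusted by Benjamini-Hochberg over 14279 genes, was under 0.05. Ezh2 itself was at 73.6 to 84.7 RPKM in wild type, against 48.7 to 64.4 RPKM in Ezh2 deletion, and fell by 0.53 on the log2 scale (SE 0.084, limma adjusted p = 0.0074). In bulk tissue, fewer cells of a type and less RNA per cell cannot be told apart. Relative depth, read from the steps of 1 read in low genes, was 1 to 1.35 in wild type and 1.25 to 2.11 in Ezh2 deletion. The labels do not give sex. RNA of the X-inactivation gene Xist was at 54.1 to 94.5 RPKM in Ezh2 deletion 1, 2 and 3 and at most 0.094 RPKM in Ezh2 deletion 4 and wild type. Conversely, Ddx3y, on the Y chromosome, ranged from 8.31 to 9.43 RPKM among wild type libraries and reached 7.92 RPKM in Ezh2 deletion 4. The other deletion libraries did not exceed 0.0219 RPKM. Sex-linked RNA thus went with genotype in all libraries except Ezh2 deletion 4. The fit has no term for sex, so its calls do not separate genotype from sex. Genes of cerebellar identity were present throughout, but not all were unchanged. Zic1, a factor of cerebellar progenitors and granule cells, was at 174 RPKM in wild type, against 175 RPKM in Ezh2 deletion (limma adjusted p = 0.973). Of the 18 genes on that list, Skor2, Olig2 and Foxp2 were called lower and Pax2 higher, with values given below.

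Of the 39 factors, 16 averaged at least 1 RPKM in wild type and 10 averaged under 0.1 RPKM in both genotypes. Most were not tested or not called, and a minority were called higher in Ezh2 deletion. Of 21 that passed the level filter, Pou4f2, Emx2 and Tlx3 rose and 0 fell. That is 14.3% of the tested factors, where 2.71% of all genes tested were higher and 0.742% lower. The median log2 difference was 0.59 over the tested factors and -0.012 over all genes. The filter itself leans towards rises. Emx2, Lhx8, Nkx6-2 and Six3 averaged under 0.25 RPKM in wild type and passed it through their level in Ezh2 deletion. Through wild type alone 0 factors passed. The same lean holds for Dlx5, Hmx2, Hmx3, Vax2, Foxd3, Nkx2-3, Hoxa10 and Hoxd10 on the other gene lists below. Such genes could only be called higher, so the counts of higher and lower genes on those lists share the lean. The shares of 2.71% and 0.742% stand beside those counts too. At an unadjusted p under 0.05 there were 8 of the 21 (38.1%), against 17.7% of all genes.

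Overlap of the groups could be read for all 39 factors, tested or not. In 9 factors all 4 deletion libraries lay above all 4 wild type libraries, and in 0 factors all lay below. That is 23.1% of the factors, against 6.08% and 4.32% of the genes that were above 0 in some library. Of the 9, 4 were tested and 5 were among the 18 below the filter, where 4.05% of genes were apart in that direction. The 9 were Emx1, Emx2, Lhx6, Lhx8, Sim2, Six6, Pou4f2, Dbx1 and Tlx1. The mean was higher in Ezh2 deletion in 33 of the 39 factors, or 84.6%, and in 50.1% of all genes above 0. Leaving out a library can only keep or raise such counts. With 1 library left out at a time, deletion lay above wild type in 9 to 15 factors, against 7.17% to 8.39% of genes. It lay below in 0 or 1, against 5.61% to 7.31% of genes. The count of 15 came without Ezh2 deletion 2, which held the lowest deletion value of several factors.

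**Figure D1:**
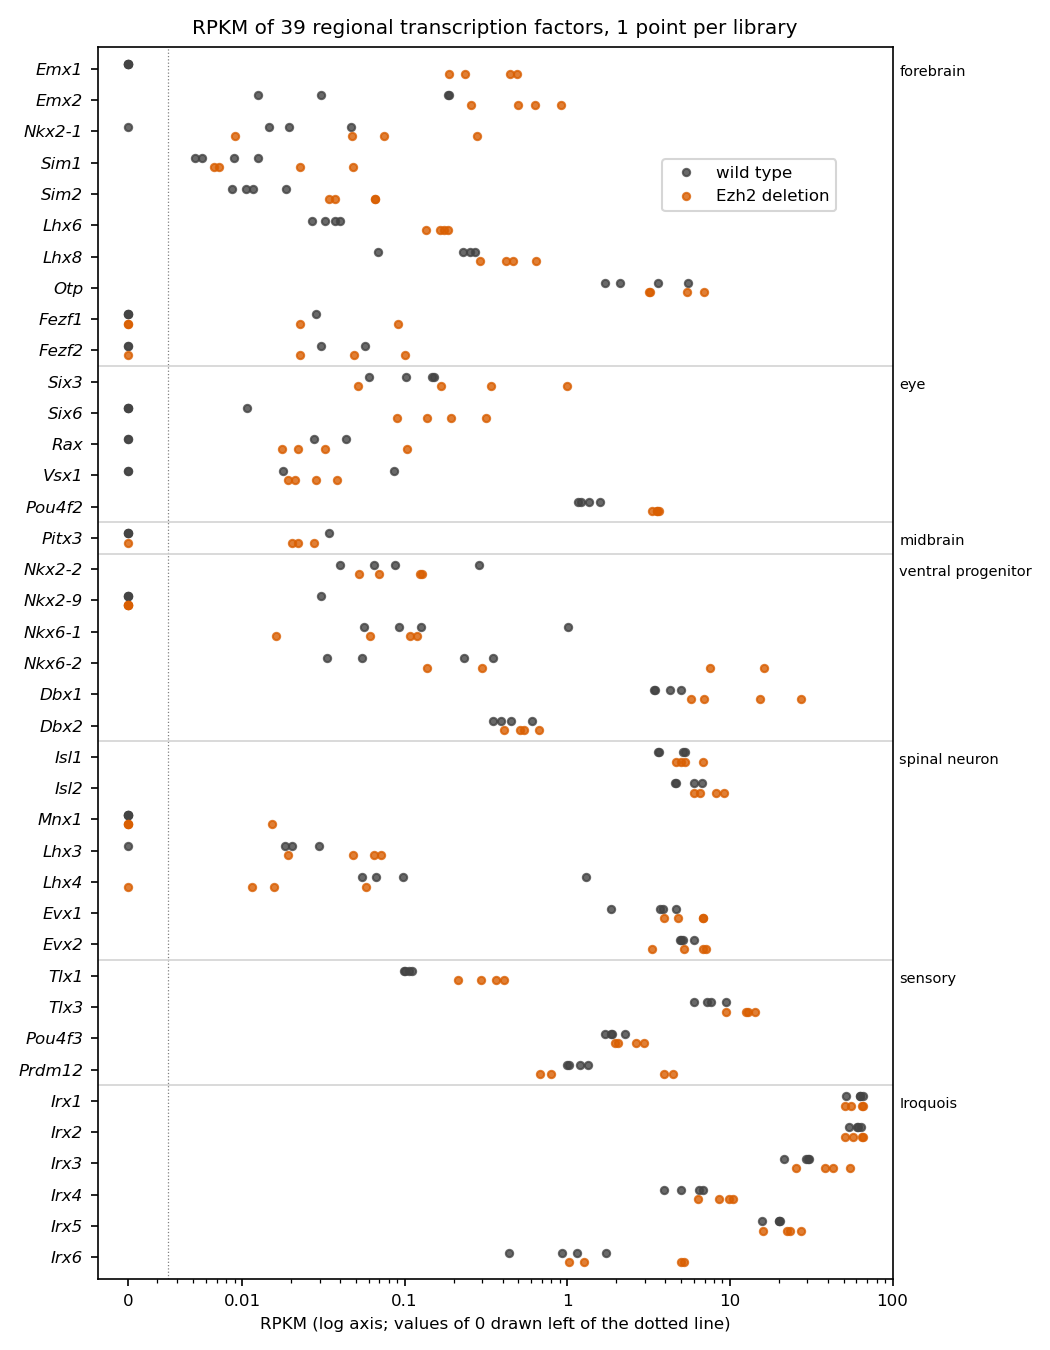
RPKM of each of the 39 factors on a log axis, 1 point per library, with wild type above and Ezh2 deletion below on each line and values of 0 left of the dotted line. Levels run from 0 to about 66.1 RPKM, and the deletion points of Emx1, Six6, Lhx6, Tlx1 and Pou4f2 stand to the right of their wild type points.

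**Figure D2:**
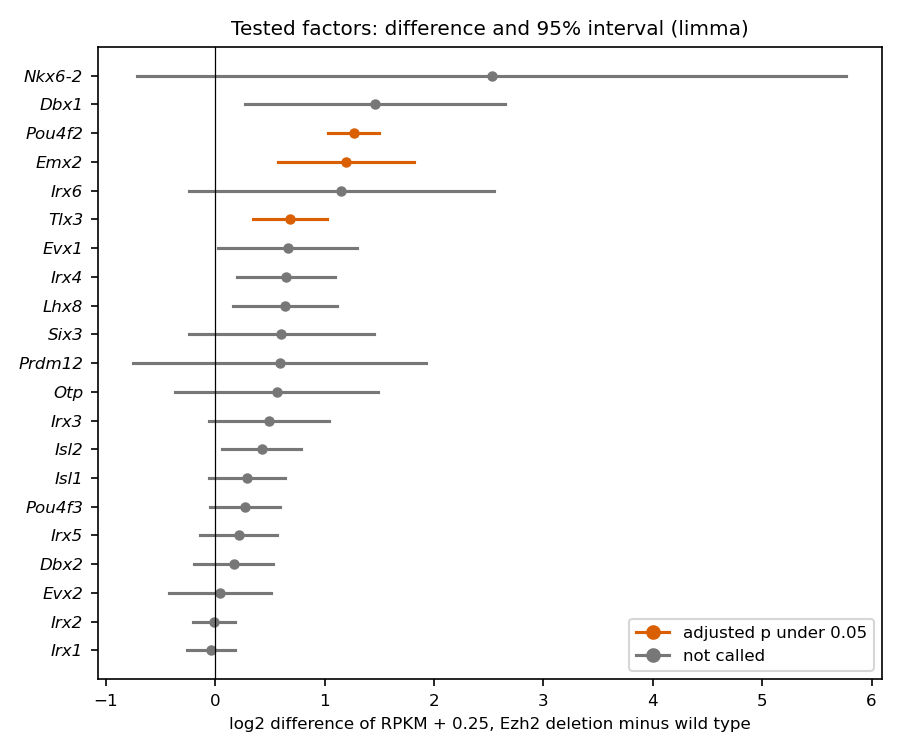
Log2 difference of RPKM + 0.25, Ezh2 deletion minus wild type, for the 21 tested factors (points) with 95% intervals from limma (lines). Pou4f2, Emx2 and Tlx3 (orange) passed the adjusted p of 0.05, and Nkx6-2, with the largest difference of the 21, has the widest interval.

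The promoters of 6 factors are printed because they cover the kinds of behaviour described below: the 3 factors that rose (Pou4f2, Emx2 and Tlx3), Emx1, which was listed at 0 in wild type, Mnx1, which was near 0 in all libraries, and Vsx1, which has few CpG dinucleotides. Each is the RefSeq window from 250 bases before to 50 bases after the start of the gene, in build GRCm38.p6, printed 5′ to 3′ on the strand of the gene, with CpG dinucleotides in capitals.
Pou4f2 (chr8:78436598-78436897, minus strand): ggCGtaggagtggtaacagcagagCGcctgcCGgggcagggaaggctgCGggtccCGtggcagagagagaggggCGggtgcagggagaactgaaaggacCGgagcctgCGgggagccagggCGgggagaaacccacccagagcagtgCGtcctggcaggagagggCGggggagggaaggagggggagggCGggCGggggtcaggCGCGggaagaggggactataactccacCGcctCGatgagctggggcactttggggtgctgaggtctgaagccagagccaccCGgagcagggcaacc
Emx2 (chr19:59458440-59458739, plus strand): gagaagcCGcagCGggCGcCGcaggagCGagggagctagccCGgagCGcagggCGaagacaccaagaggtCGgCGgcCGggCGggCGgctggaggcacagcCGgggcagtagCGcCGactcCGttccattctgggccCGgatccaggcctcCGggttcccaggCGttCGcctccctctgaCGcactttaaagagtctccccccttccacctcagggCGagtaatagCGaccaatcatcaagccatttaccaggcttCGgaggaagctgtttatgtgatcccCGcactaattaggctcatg
Tlx3 (chr11:33203539-33203838, minus strand): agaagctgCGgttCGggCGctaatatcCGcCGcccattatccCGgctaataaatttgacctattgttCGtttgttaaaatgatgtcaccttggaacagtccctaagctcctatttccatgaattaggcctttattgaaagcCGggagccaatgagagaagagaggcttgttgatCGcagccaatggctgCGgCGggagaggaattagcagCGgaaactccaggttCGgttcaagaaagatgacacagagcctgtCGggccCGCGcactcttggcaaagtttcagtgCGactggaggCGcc
Emx1 (chr6:85187681-85187980, plus strand): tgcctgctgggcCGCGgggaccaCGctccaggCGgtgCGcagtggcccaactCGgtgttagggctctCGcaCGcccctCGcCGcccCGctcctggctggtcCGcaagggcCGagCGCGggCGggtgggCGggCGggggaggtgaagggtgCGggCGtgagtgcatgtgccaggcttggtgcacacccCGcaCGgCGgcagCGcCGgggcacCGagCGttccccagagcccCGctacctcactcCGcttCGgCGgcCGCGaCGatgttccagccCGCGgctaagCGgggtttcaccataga
Mnx1 (chr5:29478421-29478720, minus strand): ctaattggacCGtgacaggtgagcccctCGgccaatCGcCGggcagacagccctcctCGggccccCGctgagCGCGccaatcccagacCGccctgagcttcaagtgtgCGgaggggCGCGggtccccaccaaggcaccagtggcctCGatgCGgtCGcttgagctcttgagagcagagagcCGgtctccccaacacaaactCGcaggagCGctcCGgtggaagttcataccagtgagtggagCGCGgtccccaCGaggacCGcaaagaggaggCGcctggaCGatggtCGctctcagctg
Vsx1 (chr2:150689088-150689387, minus strand): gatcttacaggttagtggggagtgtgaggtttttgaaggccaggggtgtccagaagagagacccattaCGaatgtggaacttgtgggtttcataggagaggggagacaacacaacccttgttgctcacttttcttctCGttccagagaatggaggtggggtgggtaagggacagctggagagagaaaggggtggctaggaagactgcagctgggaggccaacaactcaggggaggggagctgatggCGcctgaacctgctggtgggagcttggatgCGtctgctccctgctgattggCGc
These windows hold 18 CpG dinucleotides in Pou4f2, 26 in Emx2, 18 in Tlx3, 37 in Emx1, 26 in Mnx1 and 5 in Vsx1.

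A window was found for 33 of the 39 factors, and for the 2 factors with several windows (Lhx3 and Lhx6) the richest was used. The dinucleotide CG reads the same on either strand, so each was counted once. At least 10 CpG dinucleotides were found in 31 of the 33 factors (93.9%), in 45.8% of all 27025 genes with a window and in 86.3% of the genes tested here. The exceptions were Lhx8, with 4, and Vsx1. The median was 17.5 in factors whose deletion libraries lay above wild type and 18 in those whose groups overlapped. The motif TAATTA, the core recognised by many homeodomains and also its own reverse complement, was in the window of Emx2 and of no other factor with a window, or 3.03% of the 33, against 6.12% of all genes.

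**Figure D3:**
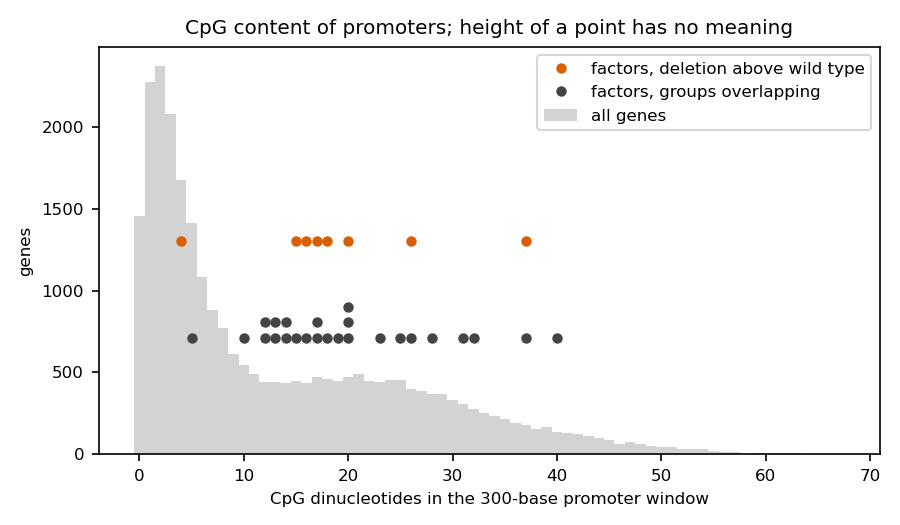
CpG dinucleotides in the 300-base promoter window (x axis) of all genes (grey bars, number of genes on the y axis) and of 33 factors (points, whose height has no meaning). Orange points, with deletion libraries above wild type, and dark points, with overlapping groups, cover the same range, and all factors but Lhx8 and Vsx1 have at least 10.

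Of the forebrain factors, the cortical genes Emx1 and Emx2 and the ventral telencephalic gene Lhx6 lay above wild type in all deletion libraries, at levels under 1 RPKM. Of the 10 forebrain factors 3 were tested, 1 rose and 0 fell. Emx2, which patterns the cerebral cortex, was at 0.186, 0.188, 0.0308 and 0.0125 RPKM in wild type 1 to 4, against 0.496, 0.631, 0.257 and 0.919 RPKM in Ezh2 deletion 1 to 4. The groups did not overlap, and the difference was 1.20 on the log2 scale (SE 0.278, limma adjusted p = 0.0484). That call was close to the threshold. It held with Ezh2 deletion 3 left out, was lost when any of the other libraries was, and was lost with a pseudocount of 0.1 or 1, quantile normalization or plain eBayes moderation. Over the alternatives the adjusted p ran from 0.0322 to 0.139. With the replicate numbers as a block it was 0.0754 (limma).

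Emx1, the paralogue of Emx2 in the cortex, was listed at 0 in each wild type library, against 0.187, 0.494, 0.234 and 0.444 RPKM in Ezh2 deletion 1 to 4. It did not pass the level filter. Lhx6, a factor of interneurons from the ventral telencephalon, was also below the filter, at 0.0271 to 0.0402 RPKM in wild type, against 0.136 to 0.186 RPKM in Ezh2 deletion, so the deletion values were tightly grouped well above wild type. When limma was run with no level filter, which called 2.18% of 19268 genes higher, 5 factors were higher: Emx1 (adjusted p = 0.00568), Lhx6 (adjusted p = 0.00159), Six6 (adjusted p = 0.0236), Tlx1 (adjusted p = 0.0157) and Pou4f2. In that fit Emx2 and Tlx3 missed the threshold, at limma adjusted p = 0.057 and 0.0537.

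Lhx8, which works beside Lhx6 and specifies cholinergic neurons, was at 0.0683, 0.272, 0.229 and 0.254 RPKM in wild type, against 0.466, 0.421, 0.292 and 0.647 RPKM in Ezh2 deletion. Its groups did not overlap, but the difference of 0.64 (SE 0.211) was not called (limma adjusted p = 0.15). Nkx2-1, which acts upstream of both in the ventral telencephalon, was at most 0.0468 RPKM in wild type, against 0.0752, 0.279, 0.0472 and 0.0091 RPKM in the deletion libraries, and the groups overlapped. Of the remaining forebrain factors, all but Otp were near 0. Sim1 and Sim2, factors of the hypothalamus and its margins, and Fezf1 and Fezf2, factors of the early forebrain and of deep cortical neurons, were each at most 0.1 RPKM in every library. Sim2 alone of these had groups apart, at 0.00866 to 0.0186 and 0.0345 to 0.0662 RPKM. Otp, a factor of hypothalamic neuroendocrine neurons that is also present in the hindbrain, was at 2.11, 5.56, 1.70 and 3.62 RPKM in wild type, against 5.44, 3.21, 3.18 and 6.97 RPKM in Ezh2 deletion, and did not pass the test (limma adjusted p = 0.515).

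The telencephalic marker list held 2 called genes of 7 tested, both higher, where 2.71% of all genes tested were higher. Both passed the level filter only through their level in Ezh2 deletion. Among them, Dlx5, a factor of ventral forebrain interneurons, rose from 0.0723 to 0.57 RPKM (limma adjusted p = 0.0242). The summed level of the 9 telencephalic markers was 59.4 to 64.1 RPKM in wild type, against 62.9 to 74.2 RPKM in Ezh2 deletion, most of it from Neurod6, at 35.9 and 38.9 RPKM. The 12 hypothalamic markers summed to 55.8 to 78.4 RPKM in wild type, against 51.5 to 72.4 RPKM in Ezh2 deletion, most of it from the peptide gene Sst, at 57.8 and 59.3 RPKM. Of 7 tested, Trh, Hmx2 and Hmx3 were higher and 0 lower, and the peptide genes Avp and Hcrt were at 0 in most libraries. What part such tissue had in these values was not tested.

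The clearest change among all 39 factors was that of Pou4f2, the factor of retinal ganglion cells and 1 of 2 tested among 5 eye factors. Its level was 1.36, 1.16, 1.21 and 1.59 RPKM in wild type 1 to 4 and 3.57, 3.34, 3.67 and 3.54 RPKM in Ezh2 deletion 1 to 4. All deletion libraries were more than 1 RPKM above all wild type libraries, and they differed little among themselves. The mean was 2.65 times higher, 1.33 ± 0.189 against 3.53 ± 0.139 RPKM (SD, n = 4), a rise of 1.26 on the log2 scale (SE 0.107, limma adjusted p = 1.39e-04). It was called under every alternative, with adjusted p from 1.16e-04 to 0.0294 (limma), the last with Ezh2 deletion 4 as the only deletion library.

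The paralogue Pou4f1, a factor of sensory and midbrain neurons, moved in the same direction, from 6.80 ± 0.358 to 14.9 ± 1.29 RPKM (SD, n = 4), which is 1.10 on the log2 scale (SE 0.0733, limma adjusted p = 2.29e-05). Pou4f3, the hair cell factor of the family, was at 1.89, 1.71, 2.27 and 1.85 RPKM in wild type, against 2.96, 2.64, 1.96 and 2.06 RPKM in Ezh2 deletion. Its groups overlapped, and with a difference of 0.27 (95% interval -0.0465 to 0.595, limma adjusted p = 0.357) it was not called. The difference in response between the paralogues was not tested.

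The early eye factors stayed low. Six6, of the optic vesicle and hypothalamus, was at 0.0108 RPKM in wild type 1 and at 0 in wild type 2 to 4, against 0.193, 0.316, 0.138 and 0.0892 RPKM in Ezh2 deletion 1 to 4. Six3, its paralogue in the anterior neural plate, was at 0.0604 to 0.151 RPKM in wild type, against 0.052, 0.341, 0.168 and 0.997 RPKM in the deletion libraries. Ezh2 deletion 4 stood alone at the top and Ezh2 deletion 1 lay below all wild type libraries (limma adjusted p = 0.442). Six3os1, a noncoding RNA gene that overlaps Six3, went from a mean of 0.0468 to 0.375 RPKM, and without stated strand their reads cannot be told apart. Rax, the eye field factor, and Vsx1, a factor of retinal bipolar cells, reached at most 0.104 and 0.0861 RPKM. Of 4 tested markers of eye and pigment epithelium, Vax2, of the ventral retina, was higher, from 0 in wild type to a mean of 6.78 RPKM, and 0 were lower. Rlbp1, a glial and pigment epithelium gene and the most abundant of the list, was at 3.68 and 4.98 RPKM (limma adjusted p = 0.224). The pigment gene Tyr was at 0 in all libraries, and Rpe65 was above 0 in Ezh2 deletion 1 alone, at 0.0158 RPKM.

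Pitx3, the factor of midbrain dopaminergic neurons and lens, was at most 0.0344 RPKM in every library.

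Of 6 factors of ventral progenitor domains 3 were tested and 0 called. Dbx1 and Nkx6-2 were high in some deletion libraries and not in others. Dbx1, which defines the progenitors of V0 spinal interneurons, was at 3.45, 5, 3.40 and 4.31 RPKM in wild type 1 to 4, against 5.80, 6.90, 15.3 and 27.3 RPKM in Ezh2 deletion 1 to 4. Each deletion library lay above each wild type library, but Ezh2 deletion 3 and 4 lay far above the other deletion libraries. With that spread the log2 difference of 1.46 (SE 0.498) was not called (limma adjusted p = 0.197). Nkx6-2, a factor of V1 progenitors and of oligodendrocytes, was at 0.231, 0.348, 0.0334 and 0.0545 RPKM in wild type, at 0.299 and 0.138 RPKM in Ezh2 deletion 1 and 2, and at 7.55 and 16.2 RPKM in Ezh2 deletion 3 and 4. Its deletion libraries thus differed 117-fold among themselves, and its difference of 2.53 had an SE of 1.34 (limma adjusted p = 0.387).

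The same libraries were the highest for Prdm12 and Irx6. Prdm12, which marks V1 progenitors in the spinal cord and nociceptive sensory neurons, was at 0.998, 1.35, 1.20 and 1.03 RPKM in wild type, against 0.797, 0.683, 3.91 and 4.47 RPKM in Ezh2 deletion 1 to 4. Ezh2 deletion 1 and 2 lay below all wild type libraries and Ezh2 deletion 3 and 4 above them (limma adjusted p = 0.646). In all, Ezh2 deletion 3 and 4 were the highest 2 of the 8 libraries in 6 of 21 tested factors, which were Dbx1, Nkx6-2, Prdm12, Irx3, Irx5 and Irx6, and in 6.5% of all genes tested. This pattern was noticed after the values were seen, and it is a description of these libraries.

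Some markers of the adjoining midbrain shared the pattern and others did not. Otx2, Otx1, Helt and Tal2 were also highest in Ezh2 deletion 3 and 4, which is 4 of 11 tested markers on a list of 12. The same held for 5 of 19 tested paralogues, among them again Otx1 and Otx2, which stand on both lists. It also held for 3 of 10 tested markers of V1 to V3 interneurons. Tal2, a factor of midbrain GABAergic neurons, was at 0.314 to 1.44 RPKM in wild type, at 0.687 and 0.814 RPKM in Ezh2 deletion 1 and 2, and at 9.02 and 26.6 RPKM in Ezh2 deletion 3 and 4. Otx1, of the forebrain and midbrain, reached 2.52 and 3.95 RPKM in Ezh2 deletion 3 and 4 against 0.0844 to 1.05 RPKM in the other 6 libraries. Otx2, of the same regions, was at 3.51 to 7.55 RPKM in wild type, against 4.14, 14.7, 15.3 and 21.1 RPKM in the deletion libraries, so Ezh2 deletion 2 was nearly as high as Ezh2 deletion 3. The midbrain markers summed to 74.9 to 93.9 RPKM in wild type, against 107, 94.8, 115 and 149 RPKM in Ezh2 deletion 1 to 4. Foxa2, which defines the floor plate, was at most 0.0597 RPKM in every library. Of the midbrain markers, Pou4f1 was called higher and 0 were lower, and Lmx1a, the most abundant, was at 24.4 to 27.8 RPKM in wild type, against 27.8, 29, 24.2 and 22.6 RPKM in Ezh2 deletion 1 to 4, lowest in deletion 3 and 4. Sox14, of midbrain and thalamic GABAergic neurons, was at 9.33 to 13.7 RPKM in wild type, against 14.9, 10.1, 10.7 and 9.94 RPKM in the deletion libraries. What part midbrain tissue had in the levels of Dbx1, Nkx6-2, Prdm12 and Irx6 was not tested.

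**Figure D4:**
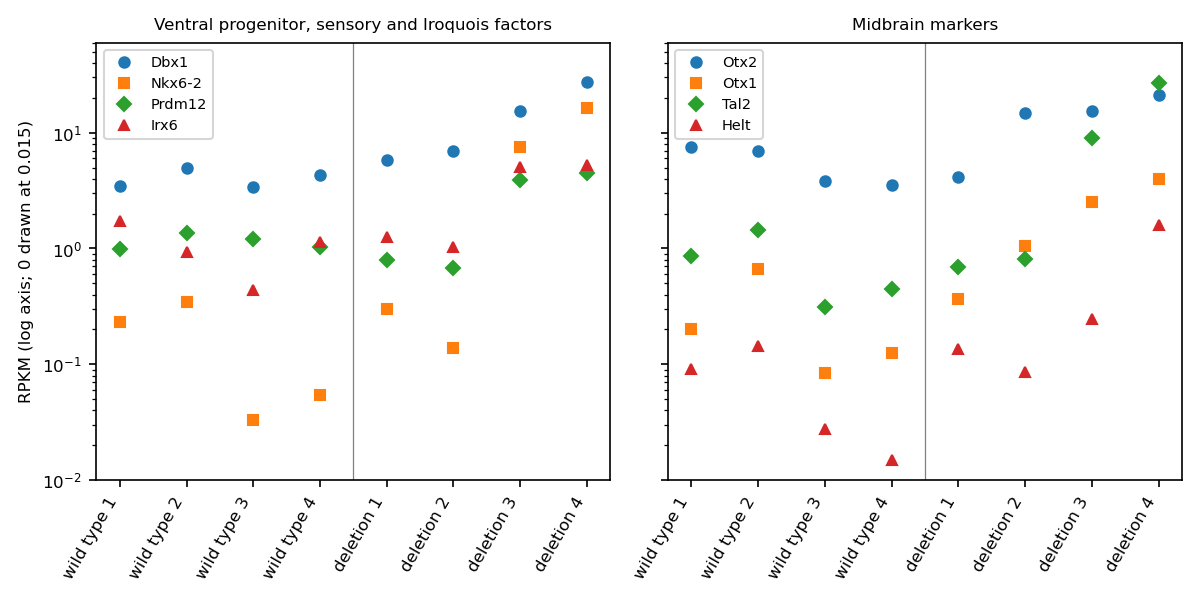
RPKM on a log axis in each of the 8 libraries of Dbx1, Nkx6-2, Prdm12 and Irx6 (left) and of the midbrain markers Otx2, Otx1, Tal2 and Helt (right), with a value of 0 drawn at 0.015. These 8 genes were chosen because their highest points are those of deletion 3 and deletion 4. The other tested midbrain markers, among them Lmx1a and Sox14, did not share the pattern and are not drawn.

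Leaving out libraries moved the difference of some factors more than that of others. With Ezh2 deletion 4 alone against wild type, the comparison among libraries with Ddx3y above 1 RPKM, 5 of 23 tested factors were higher, against 1.38% of 14142 genes: Dbx1, Nkx6-2, Prdm12, Six3 and Pou4f2. That fit takes its spread from wild type and assumes that the lone deletion library varies alike. Another alternative, chosen after the values were seen, left out Ezh2 deletion 3 and 4. Of 20 tested factors it called only Pou4f2 higher, against 1.18% of 14232 genes. With fewer libraries it called 168 genes higher, against 387 in the main fit. The differences of Emx2 and Tlx3 were 1.24 and 0.61, against 1.20 and 0.68 in the main fit. Those of Dbx1 and Irx6 were 0.63 and 0.17, against 1.46 and 1.15. The difference of Prdm12 turned to -0.49 (SE 0.165, limma adjusted p = 0.252). Ezh2 deletion 1 and 2 lay above all wild type libraries in 11 factors, against 11.5% of genes above 0, and below all of them in 2, Lhx4 and Prdm12, against 9.17%.

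The more ventral factors were low, with 1 library standing apart. Nkx6-1, of motor neuron and V2 progenitors, was at 1.01 RPKM in wild type 2 and at most 0.127 RPKM in every other library. Lhx4, of motor neurons and V2 interneurons, was at 1.31 RPKM in wild type 2 and at most 0.0981 RPKM elsewhere. These were the only 2 of the 39 factors in which wild type 2 was at 0.25 RPKM or more and over 3 times every other wild type library. With no floor on its level, wild type 2 exceeded the other wild type libraries over 3 times in 4 of 10 tested markers of V1 to V3 interneurons. Among them were Gata3, Tal1 and Foxd3, the last at 0.163 RPKM in wild type 2. By that rule 0 of the tested factors qualified, and its share over all genes was not counted. Neither Nkx6-1 nor Lhx4 passed the filter. Nkx2-2 and Nkx2-9, factors of the V3 domain beside the floor plate, were at most 0.285 and 0.0306 RPKM, and Nkx2-9 was at 0 in 7 libraries. Dbx2, of the domains beside Dbx1, was at 0.348 to 0.606 RPKM in wild type, against 0.407 to 0.675 RPKM in Ezh2 deletion (difference 0.17, or -0.014 with quantile normalization, 95% interval -0.195 to 0.528, limma adjusted p = 0.641).

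The ventral signalling list gave 1 call. Of 6 tested, Gli1, a transcription factor induced by Sonic hedgehog, was higher, from 0.789 ± 0.223 to 1.91 ± 0.536 RPKM (SD, n = 4), or 1.04 on the log2 scale (SE 0.217, limma adjusted p = 0.0305), and 0 were lower. Shh itself was at 0.195 to 0.541 RPKM in wild type, against 0.388 to 0.761 RPKM in Ezh2 deletion (limma adjusted p = 0.211). Ptch1, the Sonic hedgehog receptor and the most abundant gene of the list, was at 12.3 and 14.6 RPKM (limma adjusted p = 0.207).

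The 7 factors of postmitotic spinal neurons gave 0 calls of 4 tested. Evx1 and Evx2, which mark V0 interneurons, lie beside the HoxA and HoxD clusters. Evx1 was at 1.85, 3.73, 3.89 and 4.66 RPKM in wild type, against 6.86, 3.96, 4.78 and 6.81 RPKM in Ezh2 deletion, with a difference of 0.66 (SE 0.281, limma adjusted p = 0.266). Evx2 was at 4.92, 4.99, 5.12 and 5.98 RPKM in wild type, against 6.79, 3.34, 5.24 and 7.09 RPKM in Ezh2 deletion, with a difference of 0.042 (95% interval -0.423 to 0.508, limma adjusted p = 0.943) that turned to -0.0057 with quantile normalization. Both were thus already present in wild type, and their groups overlapped. A noncoding RNA gene that overlaps Evx1, Evx1os, listed as 5730457N03Rik, went from 4.18 to 7.05 RPKM (limma adjusted p = 0.274), and its reads cannot be told from those of Evx1 without strand.

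The neighbouring Hox genes were lower in wild type than Evx1 and Evx2 on the RPKM scale. Hoxa13, the listed gene on the cluster side of Evx1, was at 0.0218 RPKM in wild type, against 0.151 RPKM in Ezh2 deletion, and Hoxd13, beside Evx2, at 0.217 and 0.416 RPKM. Hoxd13 was not called (limma adjusted p = 0.165) and Hoxa13 did not pass the filter. Farther into the clusters Hoxa10 rose from 0.00471 to 2.94 RPKM (limma adjusted p = 2.16e-07), and Hoxd10 from 0 in all wild type libraries to a mean of 0.575 RPKM (limma adjusted p = 7.9e-04).

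Isl1, which motor and sensory neurons need, was at 3.60, 3.68, 5.33 and 5.12 RPKM in wild type, against 4.98, 4.65, 5.32 and 6.84 RPKM in Ezh2 deletion (limma adjusted p = 0.373). Isl2, its paralogue, was at 4.68, 4.57, 6.00 and 6.78 RPKM in wild type, against 8.26, 6.53, 6.03 and 9.16 RPKM in Ezh2 deletion, a difference of 0.43 (95% interval 0.0658 to 0.788, limma adjusted p = 0.205). In both genes every deletion library was above the wild type mean while the groups overlapped. Mnx1, the defining factor of somatic motor neurons, was at 0 in all libraries except Ezh2 deletion 2, at 0.0153 RPKM. Lhx3, the partner of Isl1 in motor neurons, was at most 0.0299 RPKM in wild type, against 0.0716 RPKM in Ezh2 deletion. Motor neuron markers gave 0 calls of 6 tested, with Chat, the acetylcholine-synthesising enzyme, at most 0.0694 RPKM, Prph at 23.7 and 25.4 RPKM, and sums of 25.3 to 42.9 RPKM in wild type, against 27 to 41.4 RPKM in Ezh2 deletion.

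Of 4 sensory factors, which include Pou4f3 and Prdm12, 3 were tested. Tlx3 rose and Tlx1 lay above wild type at a low level. Tlx3, which directs dorsal spinal and sensory neurons to a glutamatergic fate, was at 7.60, 6.05, 7.22 and 9.49 RPKM in wild type, against 14.2, 9.46, 13 and 12.6 RPKM in Ezh2 deletion. Ezh2 deletion 2 lay just under wild type 4, so the groups met at that point. The mean was 1.62 times higher and the log2 difference 0.68 (SE 0.15, limma adjusted p = 0.0419). The call was lost without wild type 1, 2 or 3 or without Ezh2 deletion 1, 3 or 4, and with quantile normalization (limma adjusted p = 0.0507) or plain eBayes moderation (limma adjusted p = 0.0688). Over all alternatives the adjusted p ran from 0.0135 to 0.277. Tlx1, its paralogue, was at 0.111, 0.106, 0.101 and 0.0986 RPKM in wild type, against 0.212, 0.293, 0.408 and 0.367 RPKM in Ezh2 deletion, 3.08 times higher and with no overlap, and it did not pass the level filter. The sensory neuron and neural crest markers had 2 higher and 0 lower genes of 8 tested, Pou4f1 and Foxd3. Ntrk2, the most abundant, was at 25.4 and 24.2 RPKM. The summed level of the list was 47.9 to 51.5 RPKM in wild type, against 58.4 to 66.7 RPKM in Ezh2 deletion, and Sox10, the defining factor of neural crest glia, was at most 0.423 RPKM. What part such cells had in the level of Tlx3 was not tested.

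The Iroquois genes, which pattern large parts of the neural tube including the hindbrain, made up most of the RNA of these factors. They took 80.4% to 82.6% of the summed RPKM of the 39 factors in wild type and 67.9% to 76.4% in Ezh2 deletion. All 6 were tested and 0 were called. They lie in 2 clusters, Irx1, Irx2 and Irx4 on chromosome 13 and Irx3, Irx5 and Irx6 on chromosome 8.

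Irx1 was at 52.0, 63.0, 63.1 and 65.5 RPKM in wild type, against 64.6, 50.9, 55.6 and 66.1 RPKM in Ezh2 deletion, a difference of -0.041 (95% interval -0.262 to 0.181). Irx2 followed closely, at 54.3, 61.0, 60.8 and 63.8 RPKM in wild type, against 65.9, 50.7, 57.4 and 64.7 RPKM in Ezh2 deletion, a difference of -0.012 (95% interval -0.205 to 0.181) that turned to 0.025 with quantile normalization. The intervals of these abundant genes are narrow and lie on both sides of 0. Irx4, at a lower level, was at 6.84, 5.03, 3.95 and 6.46 RPKM in wild type, against 10.4, 6.38, 8.52 and 9.84 RPKM in Ezh2 deletion, a difference of 0.64 (SE 0.196, limma adjusted p = 0.128). Its only overlap was Ezh2 deletion 2, which lay under wild type 1 and 4.

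In the second cluster, Irx3 was at 29.3, 30.1, 21.6 and 30.5 RPKM in wild type, against 38.2, 25.4, 42.9 and 55 RPKM in Ezh2 deletion. Irx5 was at 19.9, 19.9, 15.7 and 20.3 RPKM in wild type, against 22.6, 15.9, 23.4 and 27.2 RPKM in Ezh2 deletion. In both genes wild type 3 was the lowest wild type library, and Ezh2 deletion 2 was the only deletion library below most of wild type. The log2 differences were 0.49 (SE 0.235) and 0.21 (SE 0.156), with limma adjusted p = 0.332 and 0.527. Irx6 was at 1.74, 0.931, 0.440 and 1.14 RPKM in wild type, against 1.26, 1.02, 5.04 and 5.21 RPKM in Ezh2 deletion, so its mean of 3.13 RPKM against 1.07 RPKM rested on Ezh2 deletion 3 and 4 (log2 difference 1.15, SE 0.594, limma adjusted p = 0.368).

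**Figure D5:**
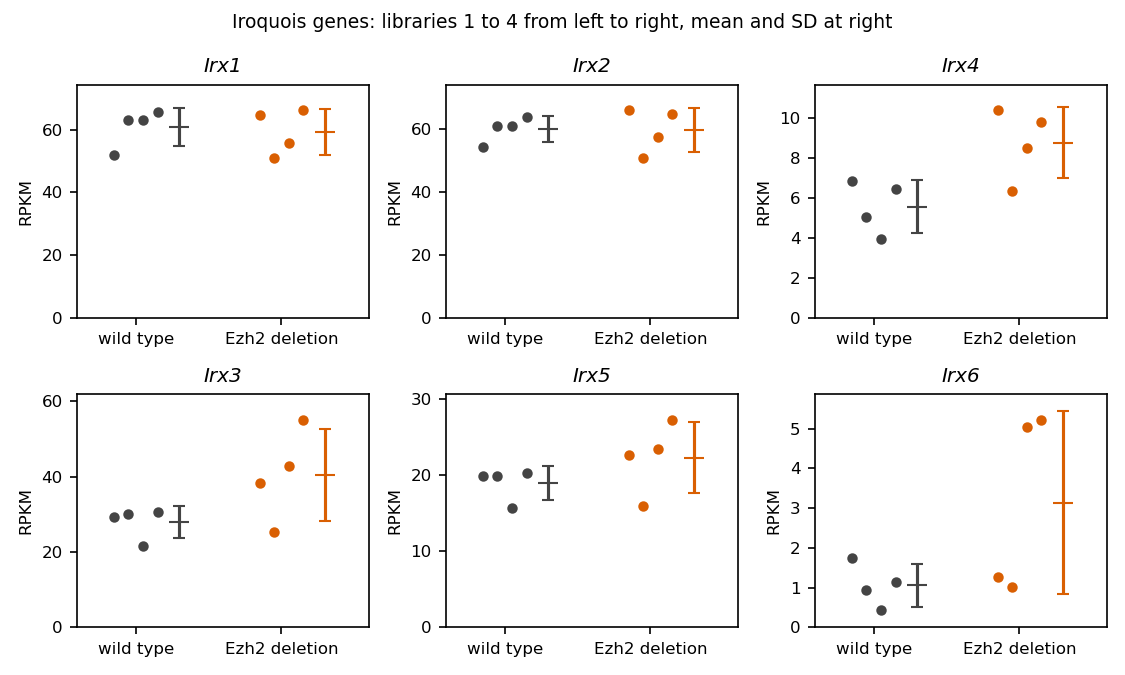
RPKM of the 6 Iroquois genes in wild type and Ezh2 deletion, libraries 1 to 4 from left to right as points, with mean and SD (n = 4) at the right of each group and axes that start at 0. Irx1 and Irx2 overlap fully, and the deletion values of Irx6 split into 2 near 1 RPKM and 2 near 5 RPKM.

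Paralogues of these factors that are not among the 39 were followed as a separate list of 30 genes. Of 19 tested, 5 were higher, among them Lhx2, Lmx1b, Nkx2-3 and Pou4f1, and 0 lower, with a median log2 difference of 0.42. Nkx2-3, a factor of gut and spleen mesoderm, rose from 0.101 to 1.30 RPKM (limma adjusted p = 1.38e-04), while Nkx2-1, Nkx2-2 and Nkx2-9 averaged at most 0.119 RPKM in either genotype. Lhx2 rose from 12.7 to 32.3 RPKM and Lmx1b from 9.33 to 25.4 RPKM, from levels already present in wild type. Lhx1, the most abundant of the list and a Purkinje cell gene, was at 81.6 and 63.5 RPKM (limma adjusted p = 0.134). The LIM cofactors, which LIM homeodomain factors such as Isl1, Lhx3 and Lhx6 require, gave 0 calls of 10 tested, with Ssbp3, the most abundant, at 148 and 152 RPKM. Of 8 corepressors, Tle1, a Groucho protein recruited by Six3 and Nkx factors, fell from 79.6 to 57.1 RPKM (log2 difference -0.48, SE 0.0566, limma adjusted p = 0.00144) and 0 rose, with Ctbp1, the most abundant, at 239 and 244 RPKM.

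Other marker lists were read for tissue composition. The 11 markers of V1 to V3 interneurons had 3 higher (Tal1, Shox2 and Foxd3) and 1 lower (Foxp2, also a Purkinje cell gene) of 10 tested. They summed to 129 to 156 RPKM in wild type, against 151 to 167 RPKM in Ezh2 deletion. Most of that sum came from Foxp2 (86.7 and 62.6 RPKM) and En1 (42.9 and 59.2 RPKM), which also stand on the list of cerebellar identity genes. Mesenchymal and meningeal markers summed to 3.30 to 8.11 RPKM in wild type, against 5.24 to 22.9 RPKM in Ezh2 deletion, the highest in Ezh2 deletion 2, with 0 calls of 7 tested and Col3a1, the most abundant, at 1.27 and 1.87 RPKM. Vascular and microglial markers summed to 53.7 to 65.0 and 46.6 to 71.8 RPKM with 0 calls of 8 and Cldn5, the most abundant, at 26.4 and 22.5 RPKM. Erythroid markers summed to 370 to 446 and 286 to 613 RPKM, with 0 higher and the adult globin gene Beta-s lower of 8 tested, and the embryonic globin Hbb-y at 307 and 408 RPKM. Of 18 cerebellar identity genes, Pax2, of GABAergic interneuron progenitors, was higher (8.18 and 15.8 RPKM), and the Purkinje lineage genes Skor2 (61.7 and 32.2 RPKM), Olig2 (14.0 and 7.45 RPKM) and Foxp2 were lower.

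Genes next to the factors on the chromosome were mostly not called. In the RefSeq gene order of GRCm38.p6, the nearest listed genes on either side that are not factors themselves numbered 70, of which 55 were tested, 3 were higher and 0 lower, with a median log2 difference of -0.016. The 3 were Htatip2 beside Dbx1, from 0.228 to 0.991 RPKM (limma adjusted p = 5.29e-04), Mmp2, a matrix protease gene beside Irx6, from 3.09 to 5.77 RPKM (limma adjusted p = 0.00308), and Cds1 beside Nkx6-1, from 1.64 to 3.13 RPKM (limma adjusted p = 0.0215). In these 3 genes Ezh2 deletion 3 and 4 did not stand above Ezh2 deletion 1 and 2. No neighbour of Pou4f2, Emx2 or Tlx3 was called. Emx2os, the antisense RNA gene beside Emx2, did not pass the filter, and its deletion libraries, at 0.0496 to 0.0643 RPKM, lay above its wild type libraries, at 0 to 0.0251 RPKM. Besides Six3 and Evx1, listed genes overlap Nkx2-2, Nkx6-2, Pitx3 and Irx2, and their reads cannot be told apart without strand. Inpp5a, which overlaps Nkx6-2, averaged 12.7 RPKM in wild type, against 12.6 RPKM in Ezh2 deletion.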

How the data were processed

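RNA-seq of E13.5 mouse cerebellum gave 1 gene table with 4 libraries labelled Ezh2 deletion and 4 labelled wild type. Its values are RPKM as the authors deposited them. Per the submitters' processing notes, Bowtie, TopHat, SICER and Cuffdiff were used with build mm9, for RNA-seq and ChIP-seq together, and polyA RNA was sequenced, per the labels' protocols. Versions, gene annotation, use of strand and the handling of multiply mapping reads, not given in the sources used here, are unknown, so reads of overlapping genes and of paralogues could have been split in ways that cannot be checked. Total depth is unknown, so low values carry no counting interval.

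Of 22552 listed genes, 3284 were at 0 in every library. Genes with a mean of at least 0.25 RPKM were tested on log2(RPKM + 0.25) with limma 3.58.1 (trend and robust moderation, statmod 1.5.0, R 4.3.3), on the deletion and wild type libraries without covariates, two-sided, and adjusted by Benjamini-Hochberg over all genes tested with a threshold of 0.05. A fold change on this scale understates that of low genes. The exact permutation test over 70 arrangements cannot go below p = 0.0286. The procedure was tested on simulated data.

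Whether each library is a separate embryo is not in the labels. The p-values therefore reflect only how far libraries vary, a spread that may be technical. Same-numbered libraries of the genotypes did not deviate together (correlations 0.00336, 0.0867, 0.0633 and 0.0521 across genes), so the numbers were not taken as pairs. The 39 factors, their role groups and the marker lists were chosen with earlier results of these data known. Some genes, such as Pou4f1, Foxd3, Otx1 and Otx2, stand on more than 1 list, so counts of different lists are not independent. All 39 factors and Ezh2 are named, and of each other list the called genes and the most abundant one, apart from some genes that are not reported here. Genes beside the factors are named where called. Defining markers and genes that stood out in some libraries (such as Otx1, Tal2, Hoxd13, Sox14 and Emx2os) were named after their values were seen. Alternatives were other pseudocounts, filters, scalings, moderation, library weights, a replicate block, thresholds, and libraries left out.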

Additional observations from a re-analysis of the deposited data

Results flagged for a closer look

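Among 44 groups of 4 libraries looked at, the wild type libraries of Irx3 and Irx5 each held a library far from the others. For both genes it was wild type 3, at 21.6 RPKM for Irx3, where the other wild type libraries were at 29.3 to 30.5 RPKM, and at 15.7 RPKM for Irx5, where the others were at 19.9 to 20.3 RPKM. Both genes lie in the cluster on chromosome 8. The rule used marks about 1 group in 20 by chance, and 2 of 44 were marked. Without wild type 3 the log2 differences of Irx3 and Irx5 were 0.37 and 0.13, and neither was called.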

How the results depend on the processing

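The main analysis called 3 factors higher, 387 genes higher and 106 lower. Factors called higher numbered 1 at a threshold of 0.01, 5 with no level filter and 1 with quantile normalization. They numbered 1 with plain eBayes moderation and 1 with Ezh2 deletion 1 and 2 alone. Leaving out 1 library at a time gave 1 to 2 factors higher and 0 to 0 lower. Deletion libraries then lay above wild type in 9 to 15 factors and below it in 0 or 1 (Lhx4). All genes higher numbered 173 at a threshold of 0.01, 614 at 0.1, 195 with Ezh2 deletion 4 alone, 168 with Ezh2 deletion 1 and 2 alone and 223 to 352 with 1 library left out. All genes lower numbered 181 with library weights, 53 with the replicate block, 44 with Ezh2 deletion 1 and 2 alone and 40 to 100 with 1 library left out. With the replicate block 300 genes were higher, and Pou4f2 and Tlx3 were called while Emx2 was not. Ezh2 itself was at -0.29 with Ezh2 deletion 4 alone, whose fit has fewer samples. That library had the most Ezh2 RNA of the deletion group, at 64.4 RPKM against 48.7 to 53.8 RPKM in the others. Signs turned for Dbx2 (-0.014), Evx2 (-0.0057) and Irx2 (0.025) with quantile normalization, for Irx1 (0.12) and Irx2 (0.11) with Ezh2 deletion 4 alone, and for Evx2 (-0.12) and Prdm12 (-0.49) with Ezh2 deletion 1 and 2 alone, the alternative chosen after the values were seen. With 1 library left out the differences ran from -0.083 to 0.26 in Evx2, -0.11 to 0.030 in Irx1 and -0.062 to 0.063 in Irx2. None of these was called except where stated, and the cause of each shift was not tested. Leaving out Ezh2 deletion 4 equals the planned fit of Ezh2 deletion 1 to 3.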
